A study of Mus musculus with 9 samples.

Results

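The mitosis and spindle genes are a set of 45 mouse genes whose products drive a cell through mitosis, from the cyclin-bound kinase that starts it to the proteins that cut the daughter cells apart. Members were chosen by symbol, and 1 probe set stood for each gene, the one with the highest mean over the arrays. Of the 45 genes, 44 had a named probe set among 18193 genes measured, and Ccnb1, which encodes cyclin B1, was not analysed here. Expression was measured on 9 Affymetrix Mouse Genome 430 2.0 arrays, 3 for each of 3 groups that the series calls Tconv, purTGFβ_iTreg and pltTGFβ_iTreg, and its design text speaks of biological replicates. Tconv stands for conventional CD4 T cells and iTreg for regulatory T cells induced in culture. All cells came from Foxp3EGFP mice on a C57BL/6 (B6) background, in which green fluorescence reports Foxp3, the factor that defines regulatory T cells. The growth notes describe spleen CD4 T cells, sorted as negative for the reporter, which were kept for 72 hours on plates coated with anti-CD3 at 2.5 µg/ml with anti-CD28 at 1 µg/ml and IL2 at 100 U/ml. The cytokine TGFβ1 was given as purified protein at 5 ng/ml for purTGFβ_iTreg, or within lysate of platelets from wild-type C57BL/6 mice, broken by freezing and thawing, for pltTGFβ_iTreg. How the Tconv cells were kept is not settled, because a treatment note carried by all samples has them receiving TGFβ1, and the labels do not state a sort of the iTreg cells between culture and extraction. The ages of the mice and the pooling of animals are not given in the sources used here.

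Mitosis begins when cyclin-bound Cdk1 becomes active. Chromosomes are then compacted, kinetochores attach them to spindle microtubules, a checkpoint holds anaphase back until attachment is complete, and midzone proteins guide the final cut. T cells stimulated through their antigen receptor with costimulation and IL2 divide repeatedly, and many mitosis genes are transcribed in late cell cycle under the MuvB core complex, B-Myb and Foxm1. MuvB complexes bind a promoter element called the CHR, and the factor NF-Y binds CCAAT boxes that often lie upstream of it.

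Because the members share this mode of transcription in general knowledge, their promoters were read for both elements. RefSeq promoters on assembly GRCm38.p6, each running from 250 bases before to 50 bases after the annotated start, were found for 38 members (40 promoters, of which Ect2 and Prc1 each have an overlapping pair). A CHR was searched as TTTGAA or TTCGAA and a CCAAT box as CCAAT, both on either strand, where TTCGAA reads the same on both strands and a CHR and a CCAAT box can share at most 1 base. The CHR letters were present in 33 of the 40 promoters (82.5%) and in 19.2% of all 32851 promoters of this length. The CCAAT letters were present in 31 (77.5%) and in 37.4% of all promoters, and both motifs together in 28 (70.0%) against 7.52%. A CHR within 40 bases of the start was present in 31 of the 40 member promoters (77.5%) and in 4.54% of all promoters, and at least 2 CCAAT boxes in 21 (52.5%) and 11.7%. A match is a description of letters and not evidence of binding.

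The promoters below show these elements in 3 members whose expression was not called changed against Tconv (Ccnb2, Cdk1 and Cdc20) and in the 2 members with the largest rise (Kif11 and Smc2). Capitals mark the CHR letters (TTTGAA, or TTCAAA where it lies on the other strand) and the CCAAT box (CCAAT, or ATTGG on the other strand). They lie at chr9:70421505-70421804 on the minus strand (Ccnb2), chr10:69352863-69353162 on the minus strand (Cdk1), chr4:118437294-118437593 on the minus strand (Cdc20), chr19:37376132-37376431 on the plus strand (Kif11) and chr4:52438971-52439270 on the plus strand (Smc2), and each is written in the direction of transcription.
Ccnb2: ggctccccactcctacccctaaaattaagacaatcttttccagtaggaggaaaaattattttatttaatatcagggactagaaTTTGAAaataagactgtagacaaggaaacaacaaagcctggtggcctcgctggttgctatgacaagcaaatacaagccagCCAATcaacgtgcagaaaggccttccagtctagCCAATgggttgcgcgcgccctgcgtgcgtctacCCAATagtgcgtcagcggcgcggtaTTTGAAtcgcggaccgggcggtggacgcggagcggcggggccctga
Cdk1: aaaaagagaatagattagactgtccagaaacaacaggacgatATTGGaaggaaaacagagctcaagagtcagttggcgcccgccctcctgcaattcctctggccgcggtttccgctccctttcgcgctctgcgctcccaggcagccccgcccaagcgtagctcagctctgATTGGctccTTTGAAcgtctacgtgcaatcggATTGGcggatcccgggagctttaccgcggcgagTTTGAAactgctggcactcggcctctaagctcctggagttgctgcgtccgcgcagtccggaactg
Cdc20: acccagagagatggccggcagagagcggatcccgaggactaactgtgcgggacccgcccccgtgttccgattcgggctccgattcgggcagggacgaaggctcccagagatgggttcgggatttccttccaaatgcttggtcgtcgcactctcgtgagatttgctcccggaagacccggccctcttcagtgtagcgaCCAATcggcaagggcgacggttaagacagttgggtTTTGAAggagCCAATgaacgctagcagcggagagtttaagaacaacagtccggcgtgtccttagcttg
Kif11: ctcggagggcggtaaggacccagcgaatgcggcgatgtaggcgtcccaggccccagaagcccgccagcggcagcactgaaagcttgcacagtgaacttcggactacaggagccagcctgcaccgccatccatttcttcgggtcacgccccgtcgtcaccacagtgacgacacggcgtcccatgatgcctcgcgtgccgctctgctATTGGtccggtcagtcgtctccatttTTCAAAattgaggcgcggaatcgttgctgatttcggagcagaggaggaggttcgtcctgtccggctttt
Smc2: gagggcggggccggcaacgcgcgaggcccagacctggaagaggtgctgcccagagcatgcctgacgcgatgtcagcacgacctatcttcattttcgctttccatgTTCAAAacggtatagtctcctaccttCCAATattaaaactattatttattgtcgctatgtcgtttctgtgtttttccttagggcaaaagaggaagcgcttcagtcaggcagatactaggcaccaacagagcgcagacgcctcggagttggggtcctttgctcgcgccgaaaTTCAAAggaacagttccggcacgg
Each of the printed promoters carried a CCAAT box upstream of a CHR within 40 bases of the start. The plot of motif positions sets out the matches for the members with 1 promoter.

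**Figure D1:**
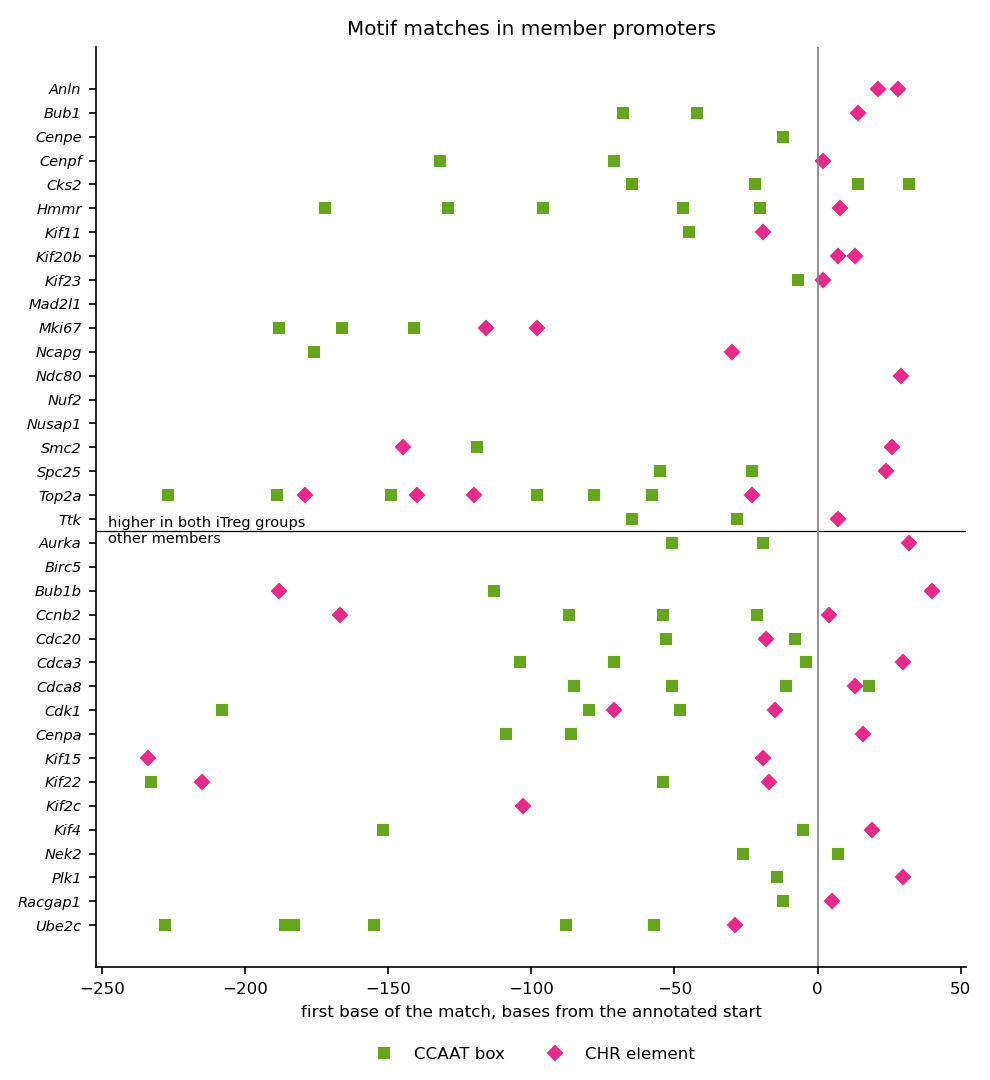
Positions of CCAAT boxes (green squares) and CHR elements (pink diamonds) in the promoters of the members with 1 RefSeq promoter; the x axis gives the first base of each match in bases from the annotated start. Matches of both kinds are found above the line (members higher in both iTreg groups) and below it (other members), with CHR letters mostly near the start.

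The motif letters were found in members with and without a rise in iTreg. Among members later found higher in both iTreg groups, 18 of 23 promoters held the CHR letters and 17 of 23 the CCAAT letters. Among the other members, 15 of 17 held the CHR letters and 14 of 17 the CCAAT letters.

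Before the comparisons, the arrays were checked for what else set Tconv apart. Xist, expressed from the inactive X chromosome of female cells, read 10.81 ± 0.16 (log2 expression, SD, n = 3) in Tconv, 3.61 ± 0.21 in purTGFβ_iTreg and 3.94 ± 0.05 in pltTGFβ_iTreg, and the Y-linked Eif2s3y read 2.70 ± 0.11, 9.01 ± 0.18 and 8.95 ± 0.07. The sex of the donor animals and the Tconv group therefore cannot be told apart. The B1 repeat control probe set also differed, at 12.27 to 12.48 in Tconv against 11.38 to 11.49 over the iTreg arrays, as did the 3' probe set of 18S ribosomal RNA, at 9.94 to 10.56 against 8.84 to 9.62. The part of these differences in the member results was not tested. The T cell markers were high, with a mean of 10.56 to 10.73 per array over 7 of 8 markers in Tconv, 10.21 to 10.29 in purTGFβ_iTreg and 10.35 to 10.40 in pltTGFβ_iTreg. Means of the B cell (5 of 6 measured), myeloid (6 of 6), platelet (6 of 6), CD8 or NK (4 of 5) and erythroid (3 of 5) markers lay between 3.41 and 5.12 on all arrays and were higher in Tconv than in either iTreg group. Of these lists, Cd79b, Itga2b, Cd8b1 and Klf1 were called lower in both iTreg groups, as were Cd4 and Cd5 of the T cell markers. Of the platelet markers, 1 of 6 was called lower in purTGFβ_iTreg and 2 of 6 in pltTGFβ_iTreg, beside 14.9% and 14.7% of all genes. Cd247 was called lower in purTGFβ_iTreg and not called in pltTGFβ_iTreg, and Cd2 went the other way, with changes of 0.35 (not called) in purTGFβ_iTreg and 0.52 (called higher) in pltTGFβ_iTreg. The part of the markers in the member results was not tested. Of the regulatory T cell markers, Il2ra, Ctla4 and Ikzf2 were higher in both iTreg groups. Foxp3 read 3.79 in Tconv, 3.77 in purTGFβ_iTreg and 3.86 in pltTGFβ_iTreg, with changes of -0.02 and 0.07. These Foxp3 values lie below the array medians of all probe sets (4.46 to 4.56). At so low a reading the probe set cannot show whether Foxp3 differed, so the match of the iTreg label to Foxp3 is not settled here.

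In purTGFβ_iTreg, 23 of the 44 members were higher than in Tconv and 0 were lower. The largest rises were those of Kif11, the motor that pushes spindle poles apart (4.43-fold), Smc2, a core subunit of condensin (4.08-fold), Kif20b, a kinesin of cytokinesis (3.65-fold), and Mki67, the coat protein of mitotic chromosomes used as a proliferation marker (3.36-fold). Cdk1, Plk1, Aurkb, Cdc20 and Foxm1 were not among the risers. A change was called at a limma adjusted p under 0.1 (Benjamini-Hochberg over all probe sets) with an absolute log2 change above 0.5. At that rule 14.5% of all genes were called higher, 14.9% lower and 29.3% in either direction. Among the 10888 genes at least as bright as the dimmest member, 23.2% were called higher and 21.6% lower. That member, Kif15, had a mean of 4.54 and the next dimmest, Foxm1, 6.72, so this background was not matched to the members' brightness. The median change of the members was 0.65 on the log2 scale, beside -0.17 over all genes. All 3 purTGFβ_iTreg arrays lay above all 3 Tconv arrays in 30 members (21.1% of all genes) and below them in 8 (41.6% of all genes).

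In pltTGFβ_iTreg, 23 members were higher than in Tconv and 1, the polo-like kinase gene Plk1, was lower. The background at the same rule was 28.5% of all genes called, 13.9% higher and 14.7% lower, and among genes at least as bright as the dimmest member 22.3% were higher and 21.5% lower. Kif11 led again, at 4.91-fold, followed by Smc2 at 4.05-fold, Kif20b at 3.65-fold, Mki67 at 3.10-fold and Ndc80 at 2.74-fold. The median change of the members was 0.60, beside -0.16 over all genes, and the pltTGFβ_iTreg arrays lay wholly above Tconv in 26 members (20.7% of all genes) and wholly below in 9 (38.4%). Both comparisons share the 3 Tconv arrays, so their values are set side by side below and likeness between them is no independent result. Each pair of changes gives purTGFβ_iTreg first and pltTGFβ_iTreg second, as log2 change from Tconv with its standard error (SE) where shown. In bulk RNA, a larger share of dividing cells and more of these transcripts per cell cannot be told apart.

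The median log2 expression over the 44 members was 9.10 to 9.23 on the Tconv arrays, 9.62 to 9.71 in purTGFβ_iTreg, and 9.37 to 9.50 in pltTGFβ_iTreg, with no overlap between any of the groups. On the Tconv arrays, the 23 members higher in both iTreg groups had medians of 8.04 to 8.15, and the other members 9.74 to 9.95. These medians were 9.15 to 9.31 and 9.64 to 9.89 in purTGFβ_iTreg, and 9.23 to 9.35 and 9.40 to 9.63 in pltTGFβ_iTreg. Members without a rise were thus the brighter ones in Tconv as a group. The part of brightness in which members and roles were called was not tested. Over all genes the array medians were lower in the iTreg groups, at 5.25 to 5.30 in purTGFβ_iTreg and 5.25 to 5.29 in pltTGFβ_iTreg. In Tconv they were 5.42 to 5.43. The upper quartile of all probe sets was instead higher, at 6.88 to 6.95 in purTGFβ_iTreg and 6.86 to 6.91 in pltTGFβ_iTreg. In Tconv it was 6.59 to 6.70. The member medians lay above that quartile on every array. Under quantile normalization, which makes the distributions of the arrays alike, the median member changes were smaller and still positive, as given with the alternatives below. The part of this shift in the changes of single members was not tested further.

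**Figure D2:**
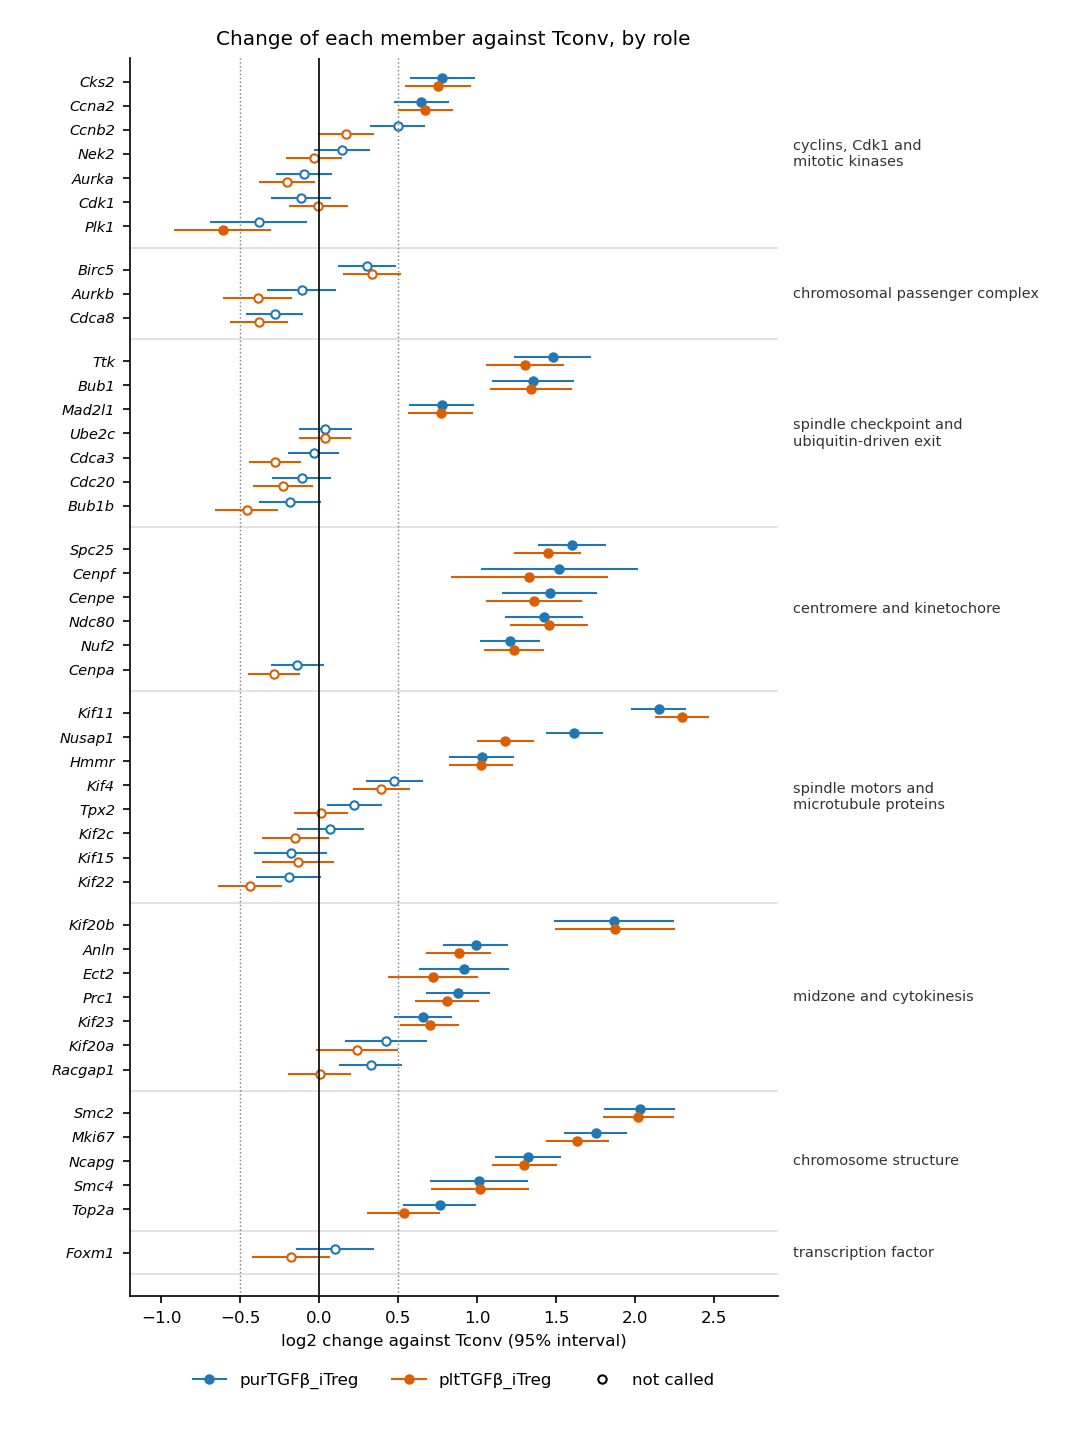
Log2 change of each member against Tconv with its 95% interval, grouped by role, for purTGFβ_iTreg (blue) and pltTGFβ_iTreg (orange); filled points were called and open points were not, and dotted lines mark a log2 change of 0.5 in either direction. All 5 chromosome structure members and 5 of 6 kinetochore members lie to the right of the line, and none of the 3 passenger complex members does.

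The chromosome structure genes were higher throughout, 5 of 5 in each comparison. Smc2 read 8.87, 9.06 and 8.91 in Tconv, 11.12, 10.83 and 10.97 in purTGFβ_iTreg, and 10.93, 11.09 and 10.87 in pltTGFβ_iTreg. The iTreg arrays were all above the Tconv arrays and overlapped with each other. Its change was 2.03 ± 0.10 (SE; adjusted p = 2.39e-08) in purTGFβ_iTreg and 2.02 ± 0.10 (adjusted p = 3.21e-08) in pltTGFβ_iTreg. Its condensin partner Smc4 changed by 1.01 and 1.02, and Ncapg, a subunit of condensin I, by 1.32 and 1.30. Mki67 read 9.87, 10.04 and 9.89 in Tconv, 11.78, 11.54 and 11.72 in purTGFβ_iTreg, and 11.58, 11.57 and 11.54 in pltTGFβ_iTreg. Again every iTreg array was above every Tconv array, with changes of 1.75 ± 0.09 (adjusted p = 2.75e-08) and 1.63 ± 0.09 (adjusted p = 5.75e-08). Top2a, the topoisomerase that untangles sister chromatids, read 10.78, 10.96 and 11.18 in Tconv, 11.72, 11.67 and 11.81 in purTGFβ_iTreg, and 11.56, 11.52 and 11.44 in pltTGFβ_iTreg. The groups did not overlap, and the pltTGFβ_iTreg arrays lay between the other groups. Top2a changed by 0.76 ± 0.10 (adjusted p = 8.69e-05) and 0.53 ± 0.10 (adjusted p = 0.0013). The second value sits just above the fold cutoff, and without Tconv replicate 1 it was 0.43 and not called.

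Kinetochore genes followed the same course, with 5 of 6 higher in each comparison. Ndc80 encodes the microtubule-binding core of the outer kinetochore. It read 6.36, 6.63 and 6.68 in Tconv, 8.08, 7.81 and 8.06 in purTGFβ_iTreg, and 8.11, 8.03 and 7.91 in pltTGFβ_iTreg. The Tconv arrays lay below all others, and the change was 1.42 ± 0.11 (adjusted p = 8.52e-07) and 1.45 ± 0.11 (adjusted p = 8.02e-07). Its partners in the same complex were higher as well, Nuf2 by 1.21 and 1.23 and Spc25 by 1.60 and 1.44. The kinetochore motor gene Cenpe was higher by 1.46 and 1.36. Cenpf, a large kinetochore protein, was higher by 1.52 and 1.33, but its Tconv arrays were the most scattered of any member (SD 0.58), with 6.43, 7.28 and 7.55. The sixth gene, Cenpa, encodes the histone H3 variant that marks centromeres. It read 10.92 to 10.99 in Tconv, 10.81 to 10.84 in purTGFβ_iTreg and 10.60 to 10.72 in pltTGFβ_iTreg, and its changes of -0.14 and -0.29 were not called.

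**Figure D3:**
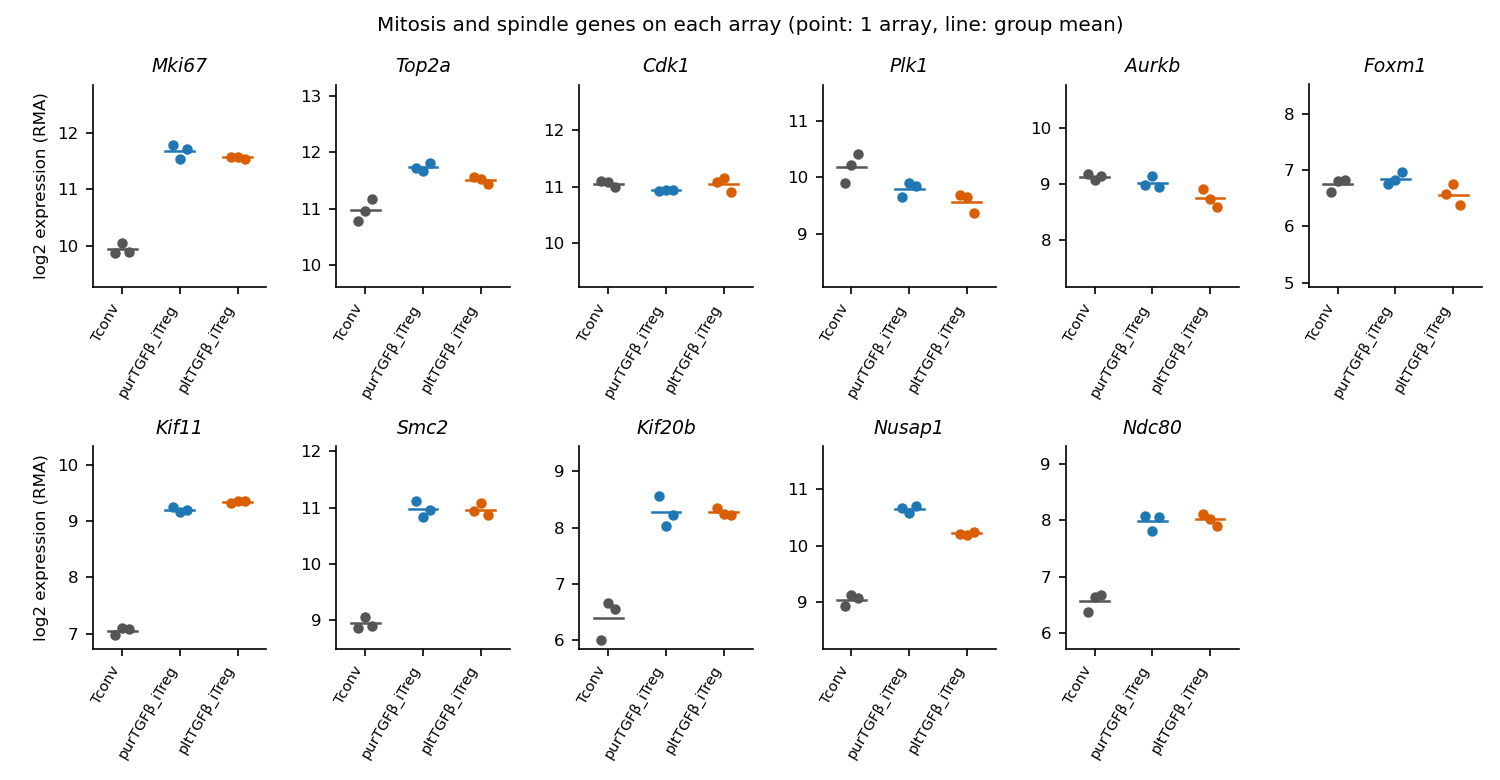
Log2 expression of 11 members on each array (points), with group means (lines), for Tconv (grey), purTGFβ_iTreg (blue) and pltTGFβ_iTreg (orange); each panel has its own range of the same length. Kif11, Smc2, Kif20b, Nusap1, Ndc80 and Mki67 show Tconv arrays well below the others, while Cdk1, Aurkb and Foxm1 show the groups close together.

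The spindle motors and microtubule proteins were split, with 3 of 8 higher in each comparison. Kif11 read 6.97, 7.10 and 7.08 in Tconv, 9.25, 9.15 and 9.19 in purTGFβ_iTreg, and 9.32, 9.35 and 9.36 in pltTGFβ_iTreg. All 3 groups were apart on every array, with changes of 2.15 ± 0.08 (adjusted p = 2.26e-09) and 2.29 ± 0.08 (adjusted p = 2.23e-09) against Tconv. Nusap1, a microtubule-bundling protein near chromosomes, read 8.93, 9.12 and 9.07 in Tconv, 10.66, 10.58 and 10.71 in purTGFβ_iTreg, and 10.21, 10.19 and 10.25 in pltTGFβ_iTreg. Here too no groups overlapped, and the platelet lysate arrays were between the others, with changes of 1.61 ± 0.08 (adjusted p = 2.60e-08) and 1.18 ± 0.08 (adjusted p = 3.35e-07). Hmmr, a spindle-associated hyaluronan receptor, was the third riser, at 1.03 and 1.02. Kif4, a chromosome-bound kinesin encoded on the X chromosome, changed by 0.47 and 0.39 at adjusted p = 0.000439 and 0.00173 and fell short of the fold cutoff. Tpx2, the activator of Aurora A, changed by 0.22 and 0.01, and the microtubule depolymerase gene Kif2c by 0.07 and -0.15. Kif22, another chromosome-bound kinesin, changed by -0.19 and -0.44. Kif15, a kinesin that can back up Kif11, changed by -0.18 and -0.13 and read 4.39 to 4.83 over all arrays.

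Of the midzone and cytokinesis genes, 5 of 7 were higher in each comparison. Kif20b read 6.00, 6.67 and 6.55 in Tconv, 8.56, 8.03 and 8.23 in purTGFβ_iTreg, and 8.34, 8.25 and 8.23 in pltTGFβ_iTreg. The iTreg arrays were all higher than Tconv and overlapped each other, with changes of 1.87 ± 0.17 (adjusted p = 3.15e-06) and 1.87 ± 0.17 (adjusted p = 3.42e-06). Anln, a scaffold of the contractile ring, was higher by 0.99 and 0.88, Ect2, the activator of RhoA at the cell equator, by 0.92 and 0.72, and Prc1, which bundles midzone microtubules, by 0.88 and 0.81. The 2 subunits of centralspindlin differed in their calls. Kif23 was higher by 0.65 and 0.70, while Racgap1 changed by 0.33 (adjusted p = 0.00983) and 0.00 and was not called, though the difference between the genes was not tested. Kif20a, the motor that carries the passenger complex to the midzone, changed by 0.42 and 0.24 and was not called.

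Among the spindle checkpoint and mitotic exit genes, 3 of 7 were higher in each comparison, and all 3 encode checkpoint proteins. Ttk, the kinase that sets off the checkpoint, was higher by 1.48 and 1.30, Bub1, a kinase at unattached kinetochores, by 1.35 and 1.34, and Mad2l1, which restrains Cdc20, by 0.77 and 0.77. The checkpoint gene Bub1b was not called, at -0.19 and -0.46. Cdc20, which activates the anaphase-promoting complex, changed by -0.11 and -0.23. Ube2c, the ubiquitin-conjugating enzyme of that complex, changed by 0.04 in each comparison, with 95% intervals of -0.12 to 0.20. Cdca3, which takes part in the destruction of Wee1, changed by -0.04 and -0.28.

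Of the cyclins and kinases that drive entry into mitosis, 2 of 7 measured genes were higher in each comparison. Ccna2, encoding cyclin A2, was higher by 0.64 and 0.67, and Cks2, a small subunit of Cdk complexes, by 0.78 and 0.75. Ccnb2, encoding cyclin B2, read 10.31, 10.20 and 10.23 in Tconv, 10.76, 10.74 and 10.73 in purTGFβ_iTreg, and 10.45, 10.48 and 10.31 in pltTGFβ_iTreg. The purTGFβ_iTreg arrays were above all others, and the change of 0.495 (1.41-fold, adjusted p = 0.000269) lay just under the log2 cutoff of 0.5 and was not called. With a cutoff of 1.4-fold in its place, Ccnb2 was called and the count in purTGFβ_iTreg was 24 (30.4% of all genes called), while that in pltTGFβ_iTreg stayed at 24 (29.7%). Its change in pltTGFβ_iTreg was 0.17. Cdk1 read 11.09, 11.08 and 10.99 in Tconv, 10.93, 10.94 and 10.94 in purTGFβ_iTreg, and 11.09, 11.15 and 10.91 in pltTGFβ_iTreg. Its groups lay within a narrow band, with changes of -0.12 (95% interval -0.30 to 0.07) and -0.01 (-0.19 to 0.18). Its promoter, like the others printed above, holds both elements. Plk1 read 9.90, 10.22 and 10.42 in Tconv, 9.64, 9.89 and 9.85 in purTGFβ_iTreg, and 9.69, 9.65 and 9.36 in pltTGFβ_iTreg. Every iTreg array was below every Tconv array, by -0.38 ± 0.14 (adjusted p = 0.0387, not called) and -0.61 ± 0.14 (adjusted p = 0.00355, called lower). Without Tconv replicate 1 the first change was -0.52 and called lower, and without Tconv replicate 3 the second was -0.49 and not called. Aurka, the centrosomal Aurora kinase, changed by -0.09 and -0.21, and Nek2, a centrosome-splitting kinase, by 0.15 and -0.03.

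None of the 3 chromosomal passenger complex genes was called. Aurkb, its kinase, read 9.18, 9.08 and 9.14 in Tconv, 8.97, 9.14 and 8.95 in purTGFβ_iTreg, and 8.90, 8.74 and 8.59 in pltTGFβ_iTreg. The pltTGFβ_iTreg arrays were the lowest, and the changes were -0.11 (adjusted p = 0.369) and -0.39 (adjusted p = 0.00642). Under quantile normalization the second was -0.52 and called lower. Cdca8, encoding borealin, changed by -0.28 and -0.38, and Birc5, encoding survivin, by 0.30 and 0.33.

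The transcription factor gene Foxm1 read 6.62, 6.80 and 6.82 in Tconv, 6.75, 6.82 and 6.97 in purTGFβ_iTreg, and 6.58, 6.75 and 6.37 in pltTGFβ_iTreg. The groups overlapped in both comparisons with Tconv, and the changes of 0.10 (95% interval -0.14 to 0.34) and -0.18 (-0.42 to 0.06) were not called.

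With the fold cutoff removed, 29 members were higher and 3 lower in purTGFβ_iTreg, beside 20.8% and 42.6% of all genes, and 26 were higher and 9 lower in pltTGFβ_iTreg, beside 20.2% and 40.3%. With a cutoff of 0.05 on the adjusted p and of 1 on the absolute log2 change, 15 members were called in each comparison, all higher, beside 11.2% and 10.1% of all genes.

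The iTreg groups were then compared with each other, which asks whether platelet lysate and purified TGFβ1 left the mitosis genes at different levels. TGFβ and the other contents of the lysate cannot be told apart in this comparison. No member met the call rule, where 4.11% of all genes were called (1.54% higher and 2.57% lower with platelet lysate). In limma, 12 members had an unadjusted p under 0.05, all with lower values in pltTGFβ_iTreg, beside 19.0% of all genes in either direction and 9.95% lower, and the same contrast with unmoderated variances called 0. Differences were small, from -0.44 to 0.15 with a median of -0.11 (0.01 over all genes). Of the members, 34 were below zero and 10 above, beside 8528 below and 9664 above of all 18193 genes. The pltTGFβ_iTreg arrays all lay below the purTGFβ_iTreg arrays in 18 members (14.6% of all genes) and above them in 1, Kif11 (13.6%).

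At an adjusted p under 0.1 with no fold cutoff, 4 members were lower in pltTGFβ_iTreg (5.49% of all genes) and 0 higher (4.23%). Nusap1 had the largest difference, -0.44 (95% interval -0.61 to -0.26, adjusted p = 0.0071), a 1.35-fold lower level. Ccnb2 was lower by 1.25-fold (-0.33, adjusted p = 0.0307), Racgap1 by 1.25-fold (-0.32, adjusted p = 0.0582) and Cdca3 by 1.19-fold (-0.25, adjusted p = 0.0814). The differences of Foxm1 (-0.28), Aurkb (-0.28), Bub1b (-0.27), Kif22 (-0.25), Top2a (-0.23) and Plk1 (-0.23) had adjusted p between 0.117 and 0.516. The 95% interval of Kif11, at 0.15, ran from -0.02 to 0.31, and that of Smc2 from -0.23 to 0.21.

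**Figure D4:**
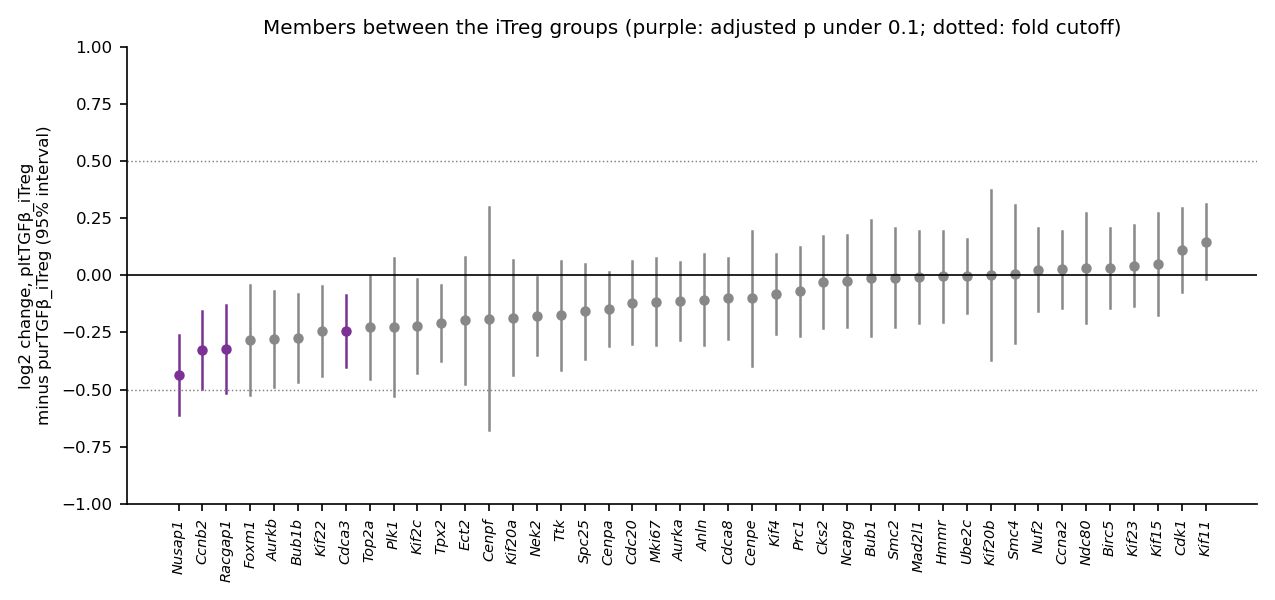
Log2 difference of each member between pltTGFβ_iTreg and purTGFβ_iTreg with its 95% interval, in order of size; purple points have an adjusted p under 0.1 and the dotted lines mark the fold cutoff. The 4 purple genes, Nusap1, Ccnb2, Racgap1 and Cdca3, are all below zero, and no point lies beyond the cutoff.

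The arrays carried 59 further probe sets for 31 members. They read the same RNA on the same arrays, and the choice had ranked them by brightness, so they are no independent check. For members called higher in purTGFβ_iTreg, 22 further probe sets were called higher, 0 lower and 9 were not called, where 25.8% of all probe sets were called. Those 9 had means of 2.32 to 6.07 over the arrays (median 3.87). Further probe sets of Anln and Bub1 within that range, at 4.23 and 4.73, were called higher. The part of brightness in the disagreement was not tested. Counts were the same in pltTGFβ_iTreg, where 25.3% of all probe sets were called. For members that were not called, 2 of 28 further probe sets were called in purTGFβ_iTreg, those of Racgap1 (0.55) and Tpx2 (0.59), and 1 of 28 in pltTGFβ_iTreg, a cross-hybridising one of Cdc20 (-0.50). In 12 of the 15 members with several probe sets higher in purTGFβ_iTreg, the brightest one had a smaller rise than another probe set of the gene. The rise of Ccna2 was 0.64 on the brightest and 1.31 on the other, and that of Smc4 was 1.01, 1.43 and 1.86. Kif11 went the other way, with 2.15 on the brightest and 1.44 and 1.59 on the others, so the size of a rise depended on the probe set.

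**Figure D5:**
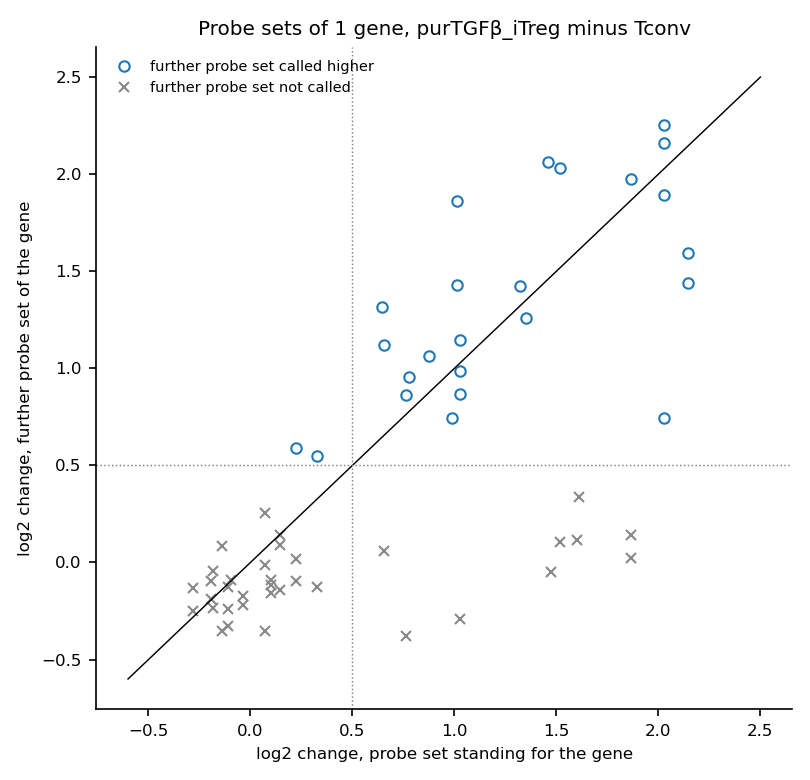
Log2 change between purTGFβ_iTreg and Tconv for the 59 further probe sets of the members (y axis) against the change of the probe set that stands for the gene (x axis); circles were called higher, crosses were not called, the solid line marks equal change and dotted lines a change of 0.5. Circles at the right scatter around the line of equal change, and 9 crosses lie at the lower right.

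Other genes of the same process were read from 3 further lists. Of 68 measured mitosis genes outside the member set, 25 were higher (36.8%) and 8 lower (11.8%) in purTGFβ_iTreg, beside 14.5% and 14.9% of all genes. In pltTGFβ_iTreg, 25 were higher (36.8%) and 10 lower (14.7%), beside 13.9% and 14.7%. The medians were 0.25 in purTGFβ_iTreg and 0.17 in pltTGFβ_iTreg. The largest rises were those of Depdc1a (2.30 and 2.10), Ncapg2, a subunit of condensin II (2.04 and 1.94), Shcbp1, a midbody protein (1.73 and 1.66), and Mis12, a kinetochore scaffold (1.69 and 1.68). The genes that were lower included Cenpm, a centromere protein (-1.26 and -1.24), Psrc1, a spindle protein (-0.98 and -0.75), Pkmyt1, an inhibitory kinase of Cdk1 (-0.95 and -0.97), and Pttg1, the securin that holds separase inactive (-0.93 and -0.87). This list thus had called genes in both directions, with the share called lower near or below that of all genes. Stil, a centriole assembly gene, and Cdc25b, a Cdk-activating phosphatase, were the 2 of 68 genes (2.94%) called lower in pltTGFβ_iTreg than in purTGFβ_iTreg, by -0.58 (adjusted p = 0.00046) and -0.56 (adjusted p = 0.015), beside 2.57% of all genes.

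All 22 regulators of the DREAM, MuvB and E2F group, which govern cell cycle transcription, were measured. Of these, 10 were higher (45.5%) and 1 lower (4.55%) in purTGFβ_iTreg, beside 14.5% and 14.9% of all genes. In pltTGFβ_iTreg, 9 were higher (40.9%) and 1 lower (4.55%), beside 13.9% and 14.7%. The medians were 0.41 in purTGFβ_iTreg and 0.33 in pltTGFβ_iTreg. The MuvB subunit genes Lin54, whose product binds the CHR, and Lin9 were higher by 1.81 and 1.66, and by 1.37 and 1.24. The pocket protein genes Rbl1 (1.55 and 1.36) and Rb1 (1.28 and 1.01) were higher, as were E2f3 (1.34 and 1.41) and E2f7 (1.30 and 1.48). Mybl2, which encodes B-Myb, was lower in purTGFβ_iTreg (-0.55) and not called in pltTGFβ_iTreg (-0.44), and the MuvB gene Lin37 was lower in pltTGFβ_iTreg (-0.75) and not called in purTGFβ_iTreg (-0.46). Between the iTreg groups 0 of 22 were called, beside 4.11% of all genes.

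Of 36 measured DNA replication genes, 7 were higher (19.4%) and 2 lower (5.56%) in purTGFβ_iTreg, beside 14.5% and 14.9% of all genes. In pltTGFβ_iTreg, 8 were higher (22.2%) and 2 lower (5.56%), beside 13.9% and 14.7%. Their medians were -0.09 and -0.02, nearer to the -0.17 and -0.16 of all genes than those of the mitosis genes. Ccne2, encoding cyclin E2 of the entry into S phase, had the largest rise at 2.64 and 2.60, followed by Tyms, which makes thymidylate (1.40 and 1.35), and Pola1, the catalytic subunit of the priming polymerase (1.37 and 1.40). Tk1, the thymidine kinase, was lower in each (-0.64 and -0.71). The origin recognition gene Orc1 was the other lower gene in purTGFβ_iTreg (-0.64, beside -0.33 not called), and Pole, a replicative polymerase, that in pltTGFβ_iTreg (-0.67, beside -0.50 not called). Between the iTreg groups 0 of 36 were called, beside 4.11% of all genes.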

How the data were processed

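Per the series' design text, the authors hybridised RNA to 9 arrays and summarised it in Affymetrix Expression Console with RMA (background correction, quantile normalization, 1 value per probe set). The deposited values are therefore on a log2 scale per the authors' text, and dim probe sets have compressed folds. The same text gives a 1.4-fold difference, equated with an absolute log2 ratio above 0.5, and a false discovery rate under 10% from an ANOVA run with Partek Genomics Suite 6.6. The log2 form was used here, which is slightly stricter than 1.4-fold. RNA was Trizol-extracted, per the labels.

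Of 45101 probe sets, 64 controls were left out and 45037 tested. Platform annotation gave 34945 probe sets 1 symbol, 932 several and did not list 9160. Of a gene's probe sets, the one with the highest mean stood for it, and one ending in _x_at only if there was no other. All 44 members matched the RefSeq table by gene identifier.

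The fit was 1 limma model (limma 3.58.1, R 4.3.3) on the 9 arrays, with group means, 3 contrasts and two-sided tests, and was tested on simulated data. No paired term was used. P-values measure the spread between these arrays, whose number limits precision, and an exact test of 3 against 3 cannot go below 0.1. Tables and plots used Python 3.11.15, pandas 2.3.3 and matplotlib 3.10.9.

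Members and lists were chosen with earlier results of these data known. Values on every array were given for the 5 called members with the largest change in each comparison and for Mki67, Top2a, Cdk1, Plk1, Aurkb and Foxm1, and Ccnb2 was added after its values were seen. From each further list up to 6 called genes per comparison could be named, and Tk1, Orc1, Pole, Mybl2, Lin37 and the mitosis genes that were lower were chosen after their values were seen. Alternatives were quantile normalization, centred medians, leaving out the 40% dimmest probe sets, unmoderated ANOVA, a fit on only the compared groups, the replicate number as a block, probe sets averaged per gene, no fold cutoff, a stricter cutoff and the omission of single arrays. A cutoff of exactly 1.4-fold was added after seeing the data.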

Additional observations from a re-analysis of the deposited data

Results flagged for a closer look

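Of 68 mitosis genes outside the member set, 2 (2.94%) were called lower in pltTGFβ_iTreg than in purTGFβ_iTreg and 0 higher, a share near the 2.57% of all genes called lower there. Stil read 7.08, 7.03 and 7.10 in Tconv, 7.99, 7.97 and 7.98 in purTGFβ_iTreg, and 7.39, 7.39 and 7.42 in pltTGFβ_iTreg. It was higher than Tconv in purTGFβ_iTreg (0.91) and not called in pltTGFβ_iTreg (0.33), and the difference of -0.58 had an adjusted p of 0.00046 in limma. Cdc25b read 7.30, 7.75 and 7.67 in Tconv, 7.67, 7.77 and 7.81 in purTGFβ_iTreg, and 7.32, 7.11 and 7.13 in pltTGFβ_iTreg. It was not called against Tconv in either group (0.18 and -0.39), and the difference of -0.56 had an adjusted p of 0.015. In both genes every pltTGFβ_iTreg array was below every purTGFβ_iTreg array.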

How the results depend on the processing

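No result changed direction. The count of members called against Tconv, 23 in purTGFβ_iTreg and 24 in pltTGFβ_iTreg, was 22 to 25 and 22 to 27 under the normalization, filter, variance and probe set alternatives, and 15 in each at an adjusted p under 0.05 with an absolute log2 change above 1. Leaving out each array gave 23 to 26 and 23 to 24 calls. Between the iTreg groups the count was 0, and 4 with no fold cutoff. A cutoff of exactly 1.4-fold, chosen after seeing the data, gave 24, 24 and 0. In each comparison with Tconv, 21 of the 23 members called higher kept that call under every alternative other than the stricter cutoff. Top2a lost it in both, Kif23 in purTGFβ_iTreg and Ttk in pltTGFβ_iTreg. Averaging probe sets per gene took in a dimmer Top2a probe set with changes of -0.38 and -0.31. It also took in a dimmer Ttk probe set, at -0.31 in pltTGFβ_iTreg. For Kif23 the cause was not tested. The median change of 0.65 in purTGFβ_iTreg was 0.55 with probe sets averaged per gene and 0.55 with quantile normalization, and that of 0.60 in pltTGFβ_iTreg was 0.45 and 0.51. Leaving out arrays gave medians of 0.63 to 0.66 and 0.55 to 0.63, and -0.14 to -0.08 between the iTreg groups. Replicate numbers were not taken to pair the arrays, though a pairing of the iTreg arrays is not settled. Same-numbered arrays of the iTreg groups deviated together with correlations of 0.09 to 0.26 across probe sets, and different-numbered ones with -0.24 to 0.05. Same-numbered arrays of Tconv and an iTreg group had correlations of -0.12 to 0.09. With the replicate number as a block, 23, 24 and 0 members were called and no median moved. Signal over background limits the dim probe sets, for which no detection calls were used here.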
